A study of Mus musculus with 8 samples.

Results

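The transcripts described here are those of 10 mouse genes that make phospholipids for mitochondria, carry them there or move them across membranes: Ptdss1, Ptdss2, Pisd, Crls1, Prelid1, Pdzd8, Mfn2, Rmdn3, Tmem41b and Vmp1. They were chosen by symbol, with earlier results of these data known, out of the 52636 genes counted in S0 cells, and all 10 were among the 17378 genes with enough counts to be tested. S0 cells are the least mature erythroid fraction of the fetal liver, negative for lineage markers of other blood cells, for the transferrin receptor CD71 and for Ter119, and were isolated by FACS at E12.5. RNAseq compared 4 WT libraries with 4 libraries of Vps13a/Vps13c double knockout (DKO) embryos on a C57BL/6J background. VPS13A and VPS13C are bridge-like proteins along which lipids are thought to slide between membranes at contact sites, VPS13A between the endoplasmic reticulum (ER) and mitochondria among others.

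DKO embryos carry the Vps13a tm1d allele, in which crosses to a Flp line and then to a β-actin-Cre line had removed an exon from every cell of the body, together with loss of both Vps13c copies. WT embryos were wild type for both genes. DKO embryos came from crosses of Vps13a+/-;Vps13c-/- parents, which yield no embryo that is wild type for Vps13c, so the WT embryos were not littermates of the DKO and genotype and litter cannot be told apart. Neither the labels nor the methods state that each library came from 1 embryo, so the p-values measure the spread between these libraries only. The results below ask whether cells without these bridges differed in the transcripts of the lipid supply that the bridges could serve.

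Mitochondria make little of their own lipid and import most phospholipids from the ER, largely at sites where the membranes are tethered. Phosphatidylserine made in the ER is carried to the inner mitochondrial membrane and decarboxylated there to phosphatidylethanolamine, while imported phosphatidic acid is turned into cardiolipin, the lipid typical of that membrane. Scramblases equalise lipid between the leaflets of a membrane, which is needed wherever a bridge withdraws lipid from or adds it to a single leaflet.

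The libraries held between 42114489 and 50886469 counts in WT and between 36981439 and 42587815 in DKO, and each of the 10 genes had at least 831 counts in every library. Vps13a fell by 1.29 on the log2 scale in DKO (edgeR adjusted p = 0.00247), and Vps13c, counted over its whole length, had a log2 fold change of 0.49 (adjusted p = 0.182) and does not check the labels. WT and DKO also differed in ways that the labels do not name. Xist was at most 30.1 normalized counts in WT and at 62.3 in DKO replicate 3, but at least 18029 in the other DKO libraries, so that DKO replicate 3 was the one DKO library with the X- and Y-linked pattern of the WT libraries. Nnt, which is deleted in part in C57BL/6J, ranged from 320 to 956 normalized counts over the WT libraries and from 1763 to 2640 over the DKO libraries (log2 fold change 1.74, adjusted p = 0.00525). Of 12 mesenchymal markers, 11 were higher in DKO, with summed levels of 2350 to 6316 in WT and 13766 to 48578 in DKO, and Twist1 at 0 in WT replicate 2. Of 12 hepatoblast markers, 11 had a log2 fold change below 0, but 0 were called by edgeR (5 at an unadjusted p under 0.05, where 36.3% of all genes tested were; DESeq2 called 5 lower), and their summed level was 715959 to 970294 in WT and 212246 to 820003 in DKO, lowest in DKO replicate 3. Summed macrophage markers were 4627 to 7169 in WT and 1212 to 4117 in DKO, with Adgre1 the 1 of 9 markers tested that was called lower. Adgre1 was at 0 in DKO replicate 4. The complement genes C1qa, C1qb and C1qc, none of them called, were at 0 in DKO replicates 2 and 3 but at 83.0, 128 and 79.9 in DKO replicate 1, above every WT library, and C1qa was also at 0 in WT replicate 3. Of 10 endothelial markers Pecam1, Tie1 and Sox18 were called lower (3), Emcn, not called, was at 0 in DKO replicate 4 and Stab2, not called, was at 0 in DKO replicate 2, with summed levels of 14219 to 15313 in WT and 9162 to 15540 in DKO. Of 8 muscle and neural markers tested Myog, Actc1 and Tnnt1 were called higher (3), and Myod1, not called, was at 0 in WT replicate 2, with summed levels of 1590 to 2276 in WT and 2670 to 6962 in DKO. Klf1, an erythroid transcription factor, was at 9622 to 17171 over the 8 libraries, where Afp of hepatoblasts was at 96775 to 350358, and 2 of 15 erythroid markers were called higher in DKO. Of all genes tested, 10.8% were called lower and 10.7% higher. At an unadjusted p under 0.05 were 11 mesenchymal, 8 muscle and neural, 4 endothelial, 3 macrophage and 3 erythroid markers. DESeq2 called 11 mesenchymal, 5 muscle and neural and 3 erythroid markers higher, and 4 endothelial and 2 macrophage markers lower. It called 13.4% of its genes higher and 12.8% lower. The part of these differences in the results below was not tested. In such bulk samples, fewer cells of a type and less RNA per cell cannot be told apart.

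The DKO libraries had less Mfn2, Rmdn3 and Pisd RNA than the WT libraries, and none of the 10 genes passed the test in the other direction. Levels are in normalized counts, obtained by dividing each count by the TMM-scaled size of its library and multiplying by the mean of these sizes. A value after ± is the SD over the libraries of a genotype (n = 4). A gene was called when the adjusted p of edgeR's quasi-likelihood test over all genes tested was under 0.05. By this rule 3 of the 10 genes were called lower in DKO, where 10.8% of all genes tested were called lower, and 0 were called higher, where 10.7% were. At an unadjusted p under 0.05 there were 6, the other 3 being Ptdss1, Ptdss2 and Crls1, where the share of all genes was 36.3%. DESeq2 called 1 gene higher and 3 lower, against 13.4% and 12.8% of the genes it tested. None of the 10 passed a log2 fold change below -1 as well, which 2.43% of all genes did. The fold change was below 0 for 7 of the 10 genes, where it was below 0 for 8231 of the 17378 genes tested. The median log2 change was -0.15, where the median over all genes tested was 0.03. Pdzd8 and Vmp1 turned positive with upper-quartile scaling. Vmp1 also did so without WT replicate 4, without DKO replicate 1 or 2, and with DKO replicate 3 alone. Vmp1 was positive as well with protein-coding genes only, a setting that here and below also leaves out histone genes. Prelid1 turned negative with DKO replicate 3 alone (-0.01). The DKO libraries all lay below the WT libraries for 3 genes, against 14.6% of all genes, and all above them for 1 gene, Crls1, against 13.5% of all genes. The count called lower was not stable: it was 1 of 10 with upper-quartile scaling (1242 of all genes), with a block for replicate number (1083) and without WT replicate 1, 2, 3 or 4 (898, 1050, 1579 and 957), and 4 without DKO replicate 3 (1995). Whether the share of the 10 genes differs from that of all genes was not tested.

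**Figure D1:**
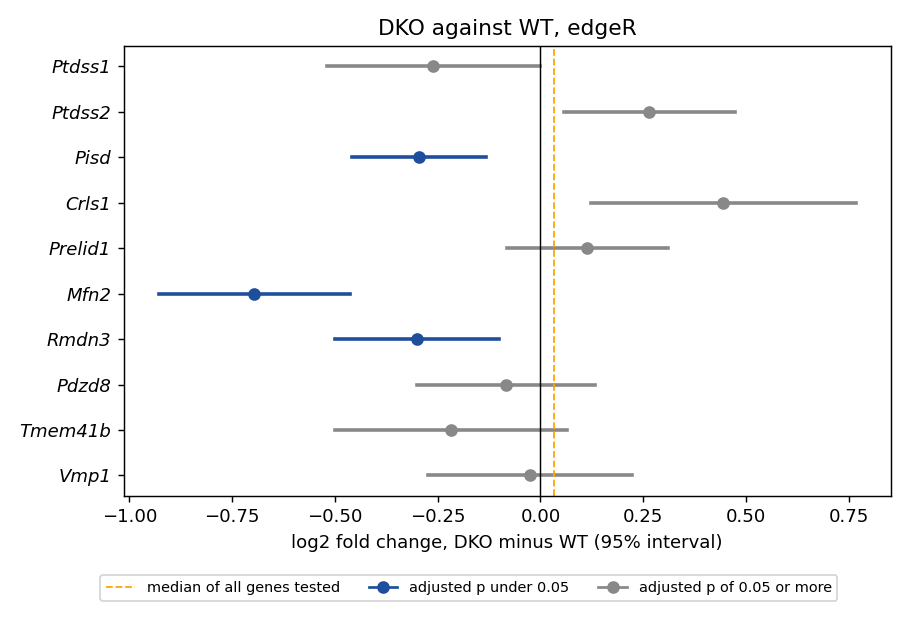
Log2 fold change of DKO over WT for each of the 10 genes on the horizontal axis, with 95% intervals from the edgeR fit of 4 WT and 4 DKO libraries; blue marks an adjusted p under 0.05 and the dashed line is the median of all genes tested, 0.03. Mfn2 lies farthest from 0 at -0.70, Pisd and Rmdn3 lie near -0.29 and -0.30, and Crls1 lies highest at 0.44 in grey.

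**Figure D2:**
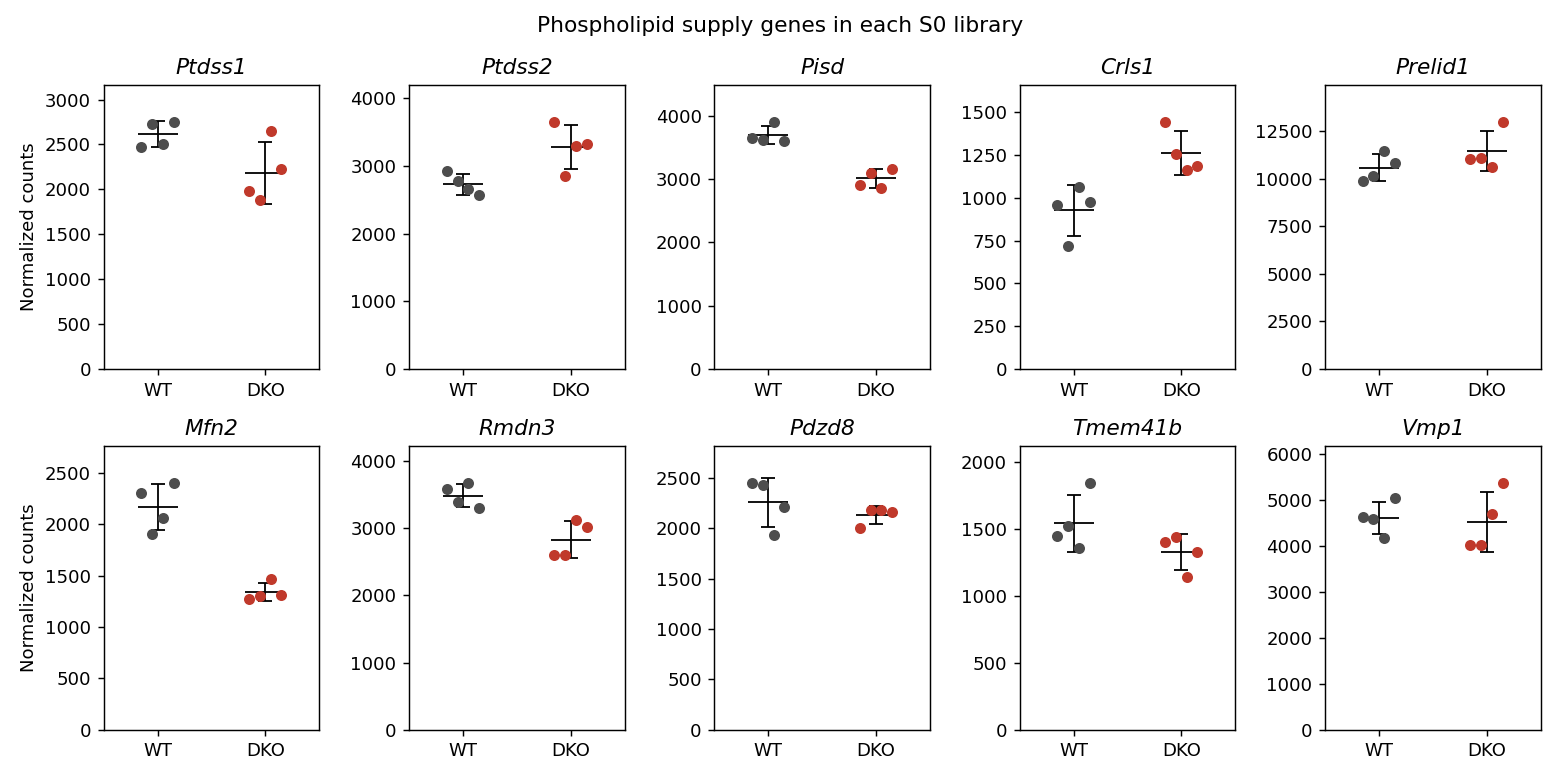
Normalized counts of the 10 genes on the vertical axes, each from 0, in 4 WT libraries (grey) and 4 DKO libraries (red); points are libraries 1 to 4 from left to right, and bars give the mean and SD. Mfn2, Rmdn3 and Pisd show all DKO points below all WT points, Crls1 shows them above, and the other genes overlap.

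Of the DNA around the transcription starts, that of the 3 genes called lower is shown. That of Crls1, the gene whose DKO libraries all lay above WT, is shown as well. RefSeq windows of 300 bases on GRCm38.p6 were at hand for 9 of the 10 genes, all but Ptdss1, and where a gene had several windows the one nearest its annotated 5′ end was taken, which for Ptdss2, Prelid1 and Tmem41b lies inside the gene as GENCODE draws it. The first 280 bases of each window are printed 5′ to 3′ along the strand of the gene. The printed stretches run past the annotated 5′ ends into the genes. They are from chr4:147904669-147904948 on the minus strand for Mfn2, chr2:119157005-119157284 on the minus strand for Rmdn3, chr5:32785597-32785876 on the minus strand for Pisd and chr2:132846416-132846695 on the plus strand for Crls1. Capitals mark a match to one of the 7 motifs searched on both strands.
Mfn2: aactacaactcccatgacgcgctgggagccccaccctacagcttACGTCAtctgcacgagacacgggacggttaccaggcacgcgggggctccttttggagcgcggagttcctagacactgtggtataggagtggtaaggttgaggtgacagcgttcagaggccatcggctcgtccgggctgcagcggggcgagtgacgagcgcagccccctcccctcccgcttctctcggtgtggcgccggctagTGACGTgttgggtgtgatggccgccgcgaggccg
Rmdn3: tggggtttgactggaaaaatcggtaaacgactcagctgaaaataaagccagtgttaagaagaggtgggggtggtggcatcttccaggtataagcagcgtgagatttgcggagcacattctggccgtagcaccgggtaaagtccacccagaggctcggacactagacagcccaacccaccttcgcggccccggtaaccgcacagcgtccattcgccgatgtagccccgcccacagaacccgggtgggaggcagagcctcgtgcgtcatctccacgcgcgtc
Pisd: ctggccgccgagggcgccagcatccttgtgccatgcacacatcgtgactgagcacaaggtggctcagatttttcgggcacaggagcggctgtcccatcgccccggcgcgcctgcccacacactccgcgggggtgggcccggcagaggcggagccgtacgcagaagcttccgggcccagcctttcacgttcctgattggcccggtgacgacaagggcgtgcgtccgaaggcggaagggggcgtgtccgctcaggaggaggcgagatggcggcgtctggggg
Crls1: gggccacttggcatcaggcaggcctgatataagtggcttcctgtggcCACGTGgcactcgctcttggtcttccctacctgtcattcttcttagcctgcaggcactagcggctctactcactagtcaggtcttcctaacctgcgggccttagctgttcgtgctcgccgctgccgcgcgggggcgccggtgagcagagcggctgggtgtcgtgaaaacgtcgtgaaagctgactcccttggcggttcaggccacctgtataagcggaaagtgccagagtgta
The Mfn2 window held the core of the cyclic AMP response element, TGACGT or its reverse complement ACGTCA, from base 45 and from base 247, and 7.513% of all 32851 windows held this core at least once. The windows of Rmdn3, Pisd and Ptdss2 held none of the 7 motifs. The Crls1 window held the E-box CACGTG, present in 7.15% of all windows. A whole cyclic AMP response element, TGACGTCA, which contains the core just named, was found for Pdzd8 and in 1.79% of all windows. None of the 9 windows held the NRF1 motif GCGCATGC (2.712% of windows), the estrogen-related receptor core AAGGTCA (4.718%) or the GATA core AGATAA (11.178%).

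A match shared by several of the genes was the ETS motif CCGGAAGT, bound by GABP, which 3.887% of all windows held. It was found near the starts of Prelid1 and of both ER scramblases, Tmem41b and Vmp1, and the 30 bases around it are shown with the motif in capitals. They are from chr13:55321977-55322006 on the plus strand, chr7:109986181-109986210 on the minus strand and chr11:86683835-86683864 on the minus strand.
Prelid1: tgacgcgggcgCCGGAAGTggccgatccta
Tmem41b: ggtgaggtggtcgtgCCGGAAGTagttgtg
Vmp1: aaggagccggaCCGGAAGTgacgcgagcga
None of these 3 genes was called in either direction. The Prelid1 window also held an E-box, from base 169. A match is a description of these letters and says nothing of binding in S0 cells. The 9 windows held 58.7% to 80.3% G and C, where the median of all windows was 52.7%. The shares over all windows make no allowance for this difference in base content.

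Among the enzymes of synthesis, the 2 phosphatidylserine synthases had fold changes of opposite sign. Ptdss1 (chromosome 13 from 66932830 to 66998401, plus strand; these and the following gene positions are on GRCm38) encodes the ER enzyme that exchanges the head group of phosphatidylcholine for serine. Its level was 2471, 2725, 2505 and 2750 normalized counts in WT replicates 1 to 4 and 1979, 1878, 2646 and 2221 in DKO replicates 1 to 4. DKO replicate 3 lay within the WT range and the other DKO libraries below it. The means were 2613 ± 145 in WT and 2181 ± 342 in DKO, with a log2 fold change of -0.26 (SE 0.12, edgeR adjusted p = 0.136; exact permutation test, two-sided, p = 0.0857). Leaving out DKO replicate 3 gave -0.36 (adjusted p = 0.0278), and with DKO replicate 3 as the only DKO library it was -0.00 (adjusted p = 0.998), a fit in which the lone library is assumed to vary like the others.

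Ptdss2 (chromosome 7 from 141122382 to 141157606, plus strand) encodes the synthase that uses phosphatidylethanolamine in place of phosphatidylcholine. WT replicates 1 to 4 held 2918, 2776, 2662 and 2562 normalized counts and DKO replicates 1 to 4 held 3648, 2844, 3299 and 3324. DKO replicate 2 lay within the WT range and the other DKO libraries were above all WT libraries. The mean was 2729 ± 153 in WT and 3279 ± 330 in DKO, with a log2 fold change of 0.26 with a 95% interval of 0.06 to 0.47 that missed the threshold (adjusted p = 0.0703; exact permutation p = 0.0571). Without DKO replicate 2 it was 0.32 (adjusted p = 0.0361).

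Because both synthases make the same lipid, their balance was also compared inside each library, where no scaling between libraries enters. The log2 ratio of Ptdss1 to Ptdss2, in counts per kilobase of annotated exon, was 0.15, 0.36, 0.30 and 0.49 in WT and -0.49, -0.21, 0.07 and -0.19 in DKO. Per kilobase, all WT libraries thus held more Ptdss1 than Ptdss2, and 3 of 4 DKO libraries held less. Without division by length, Ptdss1 was below Ptdss2 in WT replicates 1, 2 and 3 and in every DKO library. Which gene leads therefore rests on the annotated exon lengths, while the difference between the genotypes does not. The ranges did not overlap, with DKO replicate 3 nearest to WT, and the means corresponded to a ratio of 1.26 in WT and 0.868 in DKO. The ratios are given as a description with no test.

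Pisd (chromosome 5 from 32736301 to 32785646, minus strand) encodes the decarboxylase that turns phosphatidylserine into phosphatidylethanolamine in the inner mitochondrial membrane, the step after import. In WT replicates 1 to 4 the level was 3647, 3622, 3903 and 3596 normalized counts, and in DKO replicates 1 to 4 it was at 2914, 3101, 2858 and 3166. The groups did not overlap, and the highest DKO library was below the lowest WT library. Pisd fell from 3692 ± 142 to 3010 ± 147, with a log2 fold change of -0.29 (SE 0.07, adjusted p = 0.0208; exact permutation p = 0.0286, the smallest that 4 against 4 libraries allow). With DKO replicate 3 as the only DKO library the log2 fold change was -0.39 (adjusted p = 0.0437). The call was lost, at the same sign, without WT replicate 1, 2, 3 or 4 (adjusted p = 0.0646, 0.0618, 0.0507 and 0.0504) and with upper-quartile scaling (log2 fold change -0.19, adjusted p = 0.101).

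Pisd has further copies in the mouse genome, Pisd-ps1 and Pisd-ps2 among them, whose reads the counting could have split from Pisd. Gm20671, on the same strand, shares 20.1% of the exon length of Pisd and had at most 38 counts in a library. Summed over these 2 copies, levels were 119 to 191 normalized counts in WT and 161 to 316 in DKO, and neither was called (0 at an unadjusted p under 0.05). Relative to the sum of both synthases that make its substrate, Pisd had a mean log2 ratio of -0.77 ± 0.09 in WT and -1.05 ± 0.20 in DKO. DKO replicate 2, at -0.81, lay within the WT range, and the other DKO libraries were below it.

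Crls1 (chromosome 2 from 132846666 to 132866785, plus strand) encodes cardiolipin synthase of the inner mitochondrial membrane. WT replicates 1 to 4 held 960, 715, 1060 and 975 normalized counts and DKO replicates 1 to 4 held 1443, 1258, 1162 and 1187. All DKO libraries were above all WT libraries, and WT replicate 2 stood lowest. The mean was 928 ± 148 in WT and 1262 ± 127 in DKO, with a log2 fold change of 0.44 with a 95% interval of 0.12 to 0.77 (SE 0.14, adjusted p = 0.0531; exact permutation p = 0.0286). Crls1 passed the threshold with DESeq2 (adjusted p = 0.0239) and limma-voom (0.0460), and with upper-quartile scaling (0.0258), relative log expression scaling (0.0498), protein-coding genes only (0.0354) and at least 10 counts in every library (0.0410), but in none of the 8 fits that left out a library (adjusted p = 0.0508 to 0.117).

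**Figure D3:**
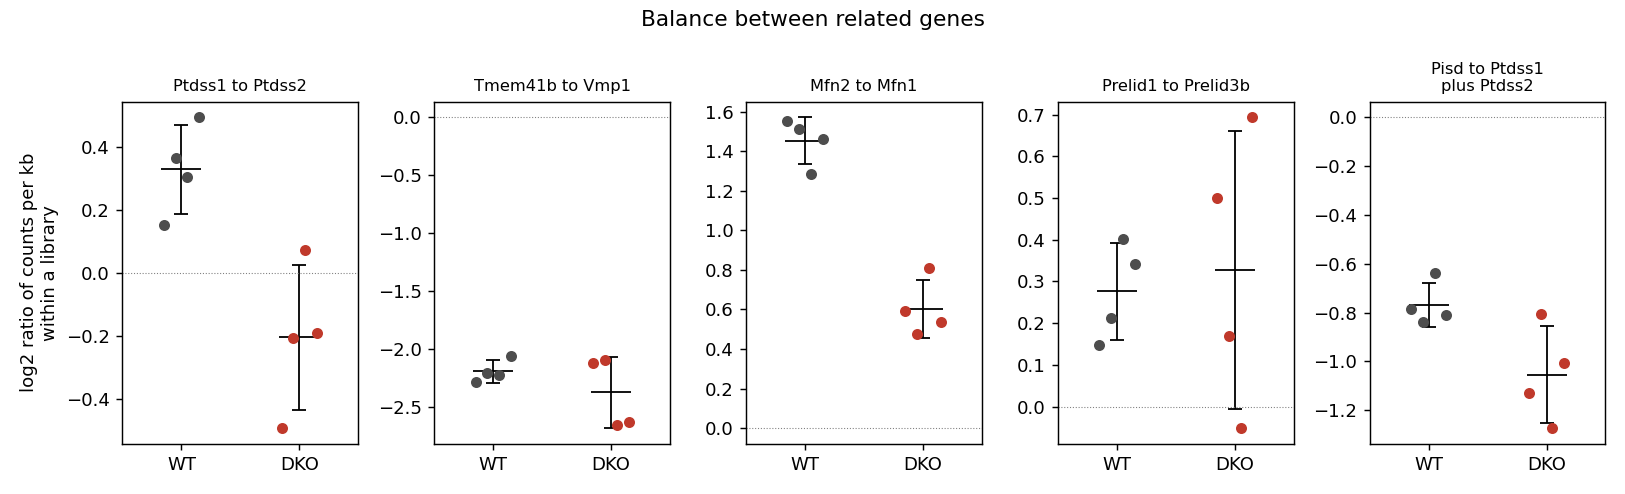
Log2 ratio of counts per kilobase between related genes on the vertical axes, within each of 4 WT (grey) and 4 DKO (red) libraries; bars give the mean and SD, and each panel has its own scale. Ptdss1 to Ptdss2 and Mfn2 to Mfn1 show every DKO library below every WT library, and the other ratios overlap.

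Prelid1 (chromosome 13 from 55320500 to 55325272, plus strand) encodes the carrier that, with Triap1, ferries phosphatidic acid across the space between the mitochondrial membranes towards cardiolipin synthesis. Over WT replicates 1 to 4 the level was 9862, 10113, 11434 and 10817 normalized counts, and in DKO replicates 1 to 4 it was 11035, 11083, 10607 and 12971. DKO replicate 4 was the highest library and the groups otherwise overlapped. The log2 fold change was 0.11 with a 95% interval of -0.08 to 0.31 (adjusted p = 0.385). Exons of Rab24, on the opposite strand, cover 46.15% of the exon length of Prelid1, and Rab24 rose from 405 ± 30 to 939 ± 265 normalized counts (log2 fold change 1.21, adjusted p = 0.00560). How the counting treated strand is not stated in the sources, so reads of the shared stretch cannot be assigned to either gene, and the Prelid1 value is uncertain for that reason.

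The partner Triap1 had a WT level of 2044 ± 56.3 normalized counts and a DKO level of 2070 ± 284 (log2 fold change 0.02, adjusted p = 0.928), and Prelid3b, the related phosphatidylserine carrier, was at 5939 ± 104 and 6255 ± 1042 (log2 fold change 0.07, adjusted p = 0.679). For Prelid3b the fit with DKO replicate 3 alone gave 0.32 (adjusted p = 0.0434). The log2 ratio of Prelid1 to Prelid3b was 0.28 ± 0.12 in WT and 0.33 ± 0.33 in DKO, with overlapping ranges and a spread in DKO from -0.05 in replicate 3 to 0.69 in replicate 4.

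At the contact sites Mfn2 and Rmdn3 fell, while Pdzd8 was not called. Mfn2 (chromosome 4 from 147873599 to 147904704, minus strand) encodes mitofusin 2, a GTPase that fuses outer mitochondrial membranes and is also found on the ER side of contacts. WT replicates 1 to 4 held 2306, 1906, 2057 and 2404 normalized counts and DKO replicates 1 to 4 held 1272, 1302, 1466 and 1313. The ranges were well apart, with the lowest WT library above the highest DKO library. Mfn2 fell from 2168 ± 228 to 1339 ± 86.9, to 0.617 of the WT level, a log2 fold change of -0.70 with a 95% interval of -0.93 to -0.46 (SE 0.10, adjusted p = 0.00359; exact permutation p = 0.0286). Mfn2 was the one gene of the 10 that kept the call in every alternative fit, between -0.75 and -0.58 on the log2 scale with adjusted p of at most 0.0338, the weakest being that with DKO replicate 3 alone.

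Mfn1, the paralog that fuses outer membranes together with Mfn2, had a WT level of 934 ± 106 normalized counts and a DKO level of 1037 ± 57.5, with a log2 fold change of 0.15 and a 95% interval of -0.12 to 0.42 (adjusted p = 0.406). The log2 ratio of Mfn2 to Mfn1 per kilobase was 1.55, 1.51, 1.28 and 1.46 in WT and 0.59, 0.48, 0.81 and 0.53 in DKO. Mfn2 RNA was thus the more abundant in every library, but by 2.74-fold in WT and 1.52-fold in DKO on the scale of the mean log2 ratio, and the ranges of the genotypes were apart.

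Rmdn3 (chromosome 2 from 119137001 to 119157034, minus strand) encodes an outer mitochondrial membrane protein, also called PTPIP51, that binds VAPA and VAPB of the ER and can transfer phospholipids. Across WT replicates 1 to 4 it was at 3585, 3392, 3680 and 3301 normalized counts, and in DKO replicates 1 to 4 it was at 2598, 2599, 3121 and 3015. DKO replicates 3 and 4 came nearest to WT, and the groups did not overlap. Rmdn3 fell from 3489 ± 174 to 2833 ± 274, with a log2 fold change of -0.30 (SE 0.09, adjusted p = 0.0401; exact permutation p = 0.0286). The call rested near the threshold: it was lost without WT replicate 1, 2, 3 or 4 (adjusted p = 0.107, 0.0848, 0.0898 and 0.0621), without DKO replicate 1 or 2 (0.0650 and 0.0869), with upper-quartile scaling (log2 fold change -0.19, adjusted p = 0.141), without the low-count filter (adjusted p = 0.0504), with protein-coding genes only (0.0618), and with DKO replicate 3 as the only DKO library (log2 fold change -0.18, adjusted p = 0.317).

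The ER partners of Rmdn3 did not move with it past the test: Vapa had a WT level of 12542 ± 1314 normalized counts and a DKO level of 13371 ± 1533 (log2 fold change 0.09, adjusted p = 0.577), and Vapb was at 2037 ± 171 and 2108 ± 233 (log2 fold change 0.05, adjusted p = 0.779).

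Pdzd8 (chromosome 19 from 59297178 to 59345780, minus strand) encodes an ER protein with a lipid-transfer domain at contacts with mitochondria and late endosomes. WT replicates 1 to 4 held 2452, 2431, 1937 and 2207 normalized counts and DKO replicates 1 to 4 held 1999.5, 2178, 2178 and 2161. All DKO libraries lay within the WT range. The log2 fold change was -0.08 with a 95% interval of -0.30 to 0.13 (adjusted p = 0.576).

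The scramblases of the ER, Tmem41b and Vmp1, were not called. Tmem41b (chromosome 7 from 109972187 to 109986929, minus strand) was at 1445, 1516, 1357 and 1843 normalized counts in the WT libraries and at 1402, 1436, 1137 and 1326 in the DKO libraries. DKO replicate 3 was lowest, WT replicate 4 was highest, and the groups overlapped. The log2 fold change was -0.22 with a 95% interval of -0.50 to 0.07 (adjusted p = 0.249), and -0.46 with DKO replicate 3 as the only DKO library (adjusted p = 0.122).

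Vmp1 (chromosome 11 from 86583865 to 86683836, minus strand), whose protein interacts with that of Tmem41b in autophagosome formation, was at 4618, 4585, 4168 and 5028 normalized counts in the WT libraries and at 4007, 4015, 4696 and 5367 in the DKO libraries. The DKO libraries lay on either side of the WT range, replicates 1 and 2 below it and replicate 4 above it. The log2 fold change was -0.02 with a 95% interval of -0.27 to 0.22 (adjusted p = 0.899). The log2 ratio of Tmem41b to Vmp1 was -2.28, -2.20, -2.22 and -2.05 in WT and -2.12, -2.09, -2.65 and -2.62 in DKO. The ratio was lower than in any WT library in DKO replicates 3 and 4 and within the WT range in DKO replicates 1 and 2. The microRNA gene Mir21a lies inside Vmp1, and these counts do not measure it.

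Levels of different genes were compared per kilobase of exon. In WT the order was Prelid1 at 3873 ± 261 normalized counts per kilobase, Vmp1 at 1191 ± 90.9, Rmdn3 at 987 ± 49.1, Pisd at 642 ± 24.7, Ptdss1 at 609 ± 33.7, Ptdss2 at 485 ± 27.1, Crls1 at 445 ± 71.2, Mfn2 at 417 ± 43.8, Pdzd8 at 377 ± 40.1 and Tmem41b at 262 ± 36.1. The carrier, a scramblase and a tether thus led, and the other scramblase came last. The ranges of Pisd and Ptdss1 overlapped, as did those of Ptdss2 with Crls1, Crls1 with Mfn2 and Mfn2 with Pdzd8.

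In DKO the first 3 places and the last were those of WT, with Prelid1 at 4191 ± 386, Vmp1 at 1171 ± 168, Rmdn3 at 801 ± 77.6 and Tmem41b at 226 ± 22.8 normalized counts per kilobase. Between them Crls1 came at 606 ± 60.9, Ptdss2 at 582 ± 58.7, Pisd at 523 ± 25.6 and Ptdss1 at 508 ± 79.6, each overlapping with the next. Crls1 was at place 7 of 10 in WT and at place 4 in DKO. Pdzd8 at 356 ± 14.5 and Mfn2 at 258 ± 16.7 followed, and Mfn2 lay below Pdzd8 in all 4 DKO libraries where it had been above it in 3 of 4 WT libraries.

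**Figure D4:**
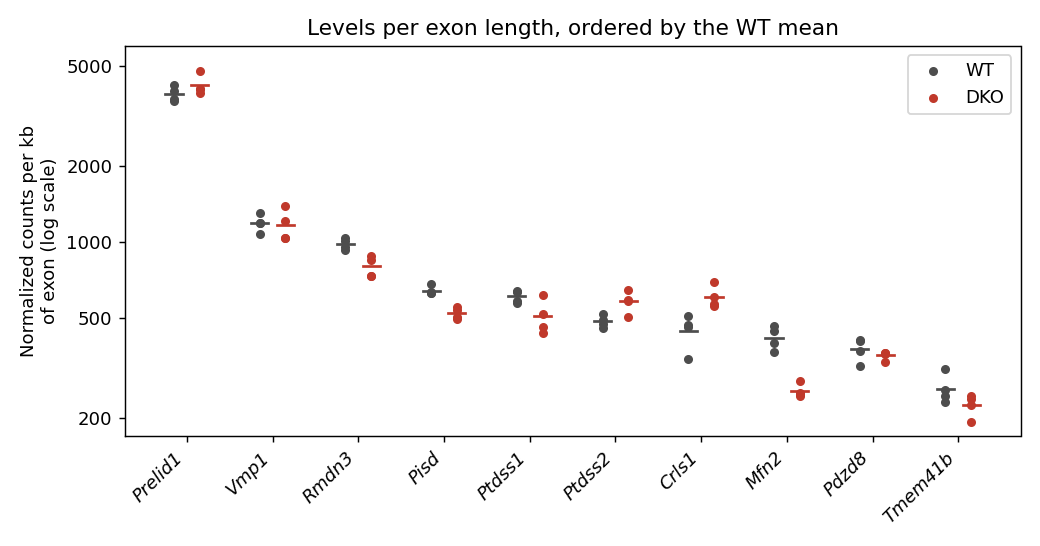
Normalized counts per kilobase of annotated exon on a log axis for the 10 genes, ordered by the WT mean, in 4 WT (grey) and 4 DKO (red) libraries; short lines are means. The genes span from 3873 for Prelid1 to 262 for Tmem41b in WT, and the red points of Crls1 and Mfn2 are displaced in opposite directions from the grey ones.

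The genes around these 10 were taken as lists written from general knowledge, and are described by how many were called and by their median, to be read against the 10.8% called lower, 10.7% called higher and 36.3% at an unadjusted p under 0.05 among all genes tested. Of 11 genes of the choline and ethanolamine branches, which make phosphatidylcholine and phosphatidylethanolamine in the ER, 2 were called lower and 0 higher, with the median log2 change at -0.10 (5 at an unadjusted p under 0.05). DESeq2 called none of them higher either. Pcyt2, which makes CDP-ethanolamine and so feeds the route to phosphatidylethanolamine that does not pass through Pisd, fell from 6183 ± 565 to 3867 ± 1029 normalized counts (log2 fold change -0.68, adjusted p = 0.0268). Pcyt1a, the corresponding enzyme for choline, fell from 2073 ± 289 to 1551 ± 78.8 (log2 fold change -0.42, adjusted p = 0.0292). The call of Pcyt2 was lost without WT replicate 1, 2, 3 or 4 or DKO replicate 2 (adjusted p = 0.0594, 0.0574, 0.0623, 0.0779 and 0.0516), and that of Pcyt1a without WT replicate 1, 2 or 4 (0.0805, 0.0614 and 0.0804) or with DKO replicate 3 alone (0.122).

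Phosphatidic acid, the precursor that Prelid1 carries, is made by acyltransferases, and its list of 14 genes had its median log2 change at -0.11, with 1 gene called higher (2 without DKO replicate 3) and 2 lower. Gpam, the acyltransferase of the outer mitochondrial membrane, fell from 1037 ± 272 to 421 ± 14.7 normalized counts (log2 fold change -1.30, adjusted p = 0.00353). Gpat4, which carries out the same step in the ER, fell from 4674 ± 329 to 3276 ± 429 (log2 fold change -0.51, adjusted p = 0.0115). Agpat4, of the next step, rose from 522 ± 40.6 to 1108 ± 170 (log2 fold change 1.09, adjusted p = 0.00263). Gpam and Agpat4 kept their calls in every alternative fit, and that of Gpat4 was lost with DKO replicate 3 alone (adjusted p = 0.0642).

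Of 8 further genes of cardiolipin synthesis and remodelling, 1 was called lower and 0 higher, with the median log2 change at -0.10 (2 at an unadjusted p under 0.05; DESeq2 called 0 higher as well, and 2 were called lower without DKO replicate 4). The gene called was Hadha, the trifunctional protein subunit of fatty acid oxidation that can also re-acylate monolysocardiolipin, with a WT level of 7498 ± 149 normalized counts and a DKO level of 6171 ± 494 (log2 fold change -0.28, adjusted p = 0.0300). Its call was lost without WT replicate 1, 2, 3 or 4 (adjusted p = 0.0843, 0.0704, 0.0590 and 0.0763).

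Of 11 carriers, scaffolds and proteases that act between the mitochondrial membranes, 1 was called lower and 0 higher, with the median log2 change at 0.05 (3 at an unadjusted p under 0.05; 1 was called higher by DESeq2 and 1 without DKO replicate 2). Oma1, the stress-activated protease of the inner membrane, fell from 1918 ± 164 to 1270 ± 188 normalized counts (log2 fold change -0.59, adjusted p = 0.0113). Its log2 fold change was -0.34 with DKO replicate 3 alone (adjusted p = 0.138).

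Of 27 other genes of contact sites, 5 were called lower and 0 higher, although the list had its median log2 change at 0.05 (9 at an unadjusted p under 0.05; DESeq2 called 0 higher as well, but edgeR called 1 and 2 higher without DKO replicate 1 or 3, and 2 with upper-quartile scaling). Rhot1, which links mitochondria to microtubule motors, fell from 4021 ± 445 to 2638 ± 312 normalized counts (log2 fold change -0.61, adjusted p = 0.00748). Vdac1, the outer membrane channel that takes part in contacts with the ER, fell from 17787 ± 633 to 13777 ± 1134 (log2 fold change -0.37, adjusted p = 0.0121). Osbpl8, which exchanges phosphatidylserine at contact sites, fell from 2728 ± 398 to 1724 ± 318 (log2 fold change -0.66, adjusted p = 0.0154).

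Fundc1, an outer membrane receptor of mitophagy, fell from 2154 ± 326 to 1508 ± 99.2 normalized counts (log2 fold change -0.51, adjusted p = 0.0176). The contact-site count fell to 2 without WT replicate 1 and to 2 without WT replicate 4, since Osbpl8 (adjusted p = 0.0502 and 0.0525) and Fundc1 (0.0594 and 0.0564) were among the calls lost. With DKO replicate 3 alone, Rhot1 had an adjusted p of 0.0810 and Fundc1 of 0.0652.

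Of 17 other scramblases and relatives, 14 could be tested, and 3 were called lower and 0 higher, with the median log2 change at -0.19 (6 at an unadjusted p under 0.05; DESeq2 called 5 lower and 0 higher, where it called 12.8% of its genes lower). Plscr3, a scramblase assigned to mitochondria, fell from 3830 ± 342 to 2647 ± 167 normalized counts (log2 fold change -0.53, adjusted p = 0.00531) and kept its call in every alternative fit. Atg9b fell from 249 ± 43.5 to 115 ± 36.6 (log2 fold change -1.11, adjusted p = 0.0254), a call lost without WT replicate 1, 2 or 4 or DKO replicate 4 (adjusted p = 0.0846, 0.0792, 0.0506 and 0.0534). Atg9a, its widely expressed paralog, had a log2 fold change of -0.32 (adjusted p = 0.364).

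Xk, the scramblase that partners VPS13A at the cell surface, was at 1388, 861, 970 and 1150 normalized counts in the WT libraries and at 692, 580, 903 and 536 in the DKO libraries. DKO replicate 3 overlapped with WT and the other DKO libraries were below it. Xk fell from 1092 ± 230 to 678 ± 164 (log2 fold change -0.69, adjusted p = 0.0411). The call was lost in 6 of the 8 fits without a library, those without WT replicate 1, 3 or 4 (adjusted p = 0.120, 0.0580 and 0.0967) or DKO replicate 1, 2 or 4 (0.0520, 0.0852 and 0.0861), and with DKO replicate 3 alone the log2 fold change was -0.29 (adjusted p = 0.457).

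Among the 10 bridge-like lipid transfer proteins, the targeted gene Vps13a was the one called, and the median log2 fold change was 0.08 (2 at an unadjusted p under 0.05; no gene was called higher by edgeR or DESeq2, and 2 were called lower by DESeq2 and without DKO replicate 2). Atg2a, a bridge that works with Tmem41b, Vmp1 and the Atg9 scramblases, had a WT level of 894 ± 221 normalized counts and a DKO level of 913 ± 135 (log2 fold change 0.03, adjusted p = 0.929). Atg2b was at 1357 ± 223 and 1442 ± 307 (log2 fold change 0.09, adjusted p = 0.757).

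**Figure D5:**
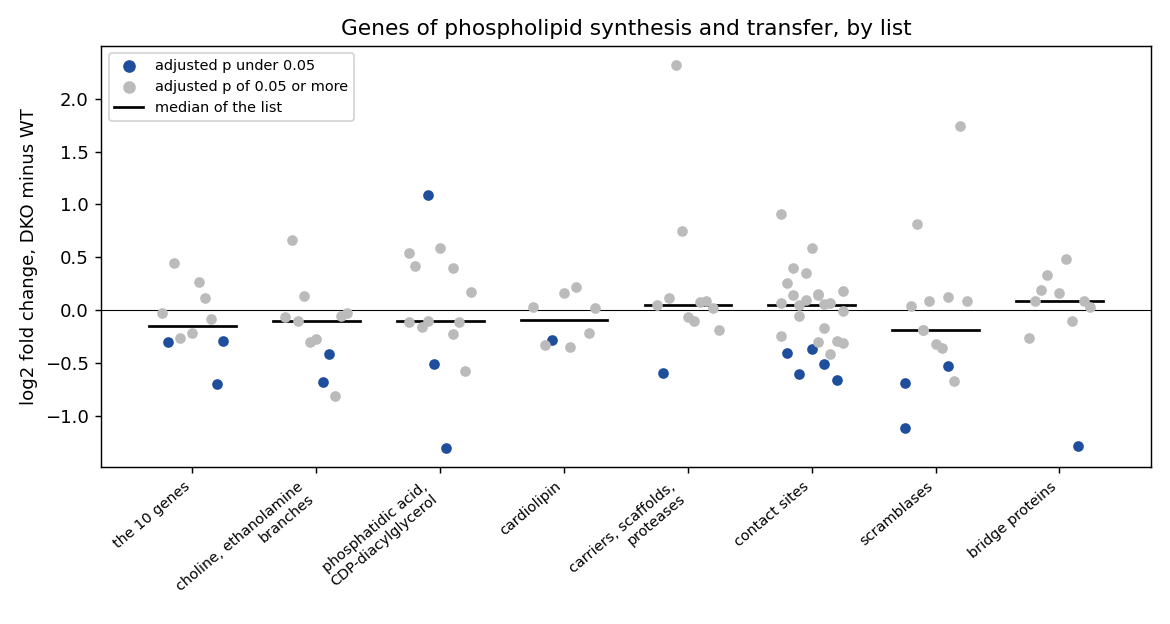
Log2 fold change of DKO over WT (vertical axis) for the 10 genes and for 7 lists of related genes, 1 point a gene, blue where the adjusted p was under 0.05; black lines are the medians of the lists. In this fit the blue points lie below 0 except Agpat4 at 1.09, and the medians lie between -0.19 and 0.08.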

How the data were processed

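RNAseq counts of 4 WT and 4 DKO libraries of S0 cells were analysed, with groups taken from the labels. The authors trimmed reads with fastp 0.21.0, mapped them to mm10 with HISAT2 2.2.1 and deposited whole-number counts per gene from StringTie 1.3.3b, neither normalized nor pooled. Of 52636 gene identifiers, 52489 matched a symbol of GENCODE M21 on GRCm38 without their version, as did all 10 members. The release named by the study differs from M21, and the strand setting is not given in the sources used here.

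Counts were filtered with filterByExpr, scaled by TMM and tested with edgeR 4.0.16 (robust quasi-likelihood, Benjamini-Hochberg over 17378 genes) in R 4.3.3. The 95% intervals use the standard error and the degrees of freedom of that test. Single genes were also compared by their mean log2 CPM (prior count 2) in an exact permutation test, two-sided, with 70 arrangements. The members and lists were chosen with earlier results of these data known. Named were the 10 members, Rab24 and Gm20671, whose exons overlap theirs, Vps13a and Vps13c, library checks and markers, partners fixed by name (Vapa, Vapb, Mfn1, Prelid3b, Triap1, Atg9a, Atg2a, Atg2b and Xk) and, from each list, up to 4 genes with the smallest p among those called. Libraries that share a replicate number were not correlated (r = -0.10, 0.05, -0.03 and -0.01 for numbers 1 to 4), so no pairing was used. The steps were tested on simulated data, in which edgeR called 10 of 16586 unchanged genes. It called 63 of 100 genes changed by 1 on the log2 scale, and 91 of 100 changed by 2, in the right direction. Changes as small as those of the 10 members were not simulated, so a gene not called is not shown to be unchanged. No library was a second copy of another (the chi-square between libraries of a genotype, averaged over genes, was at least 18.3). Promoter windows are from RefSeq (GRCm38.p6). The alternatives were DESeq2 1.42.0, limma-voom (limma 3.58.1), other scalings and filters, a replicate block, each library left out and DKO replicate 3 alone. Counting error is small at these depths, and the spread between libraries limits precision. Some genes are not reported here.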

Additional observations from a re-analysis of the deposited data

Results flagged for a closer look

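Of 30 groups of 4 libraries examined, 2 held a library whose distance from its nearest neighbour took up more of the whole range of the group than Dixon's 95% critical value allows, and chance alone marks about 1 group in 20. Pisd was at 3903 normalized counts in WT replicate 3, above the other WT libraries at 3596 to 3647, and without it the adjusted p of Pisd was 0.0507. Pdzd8 was at 1999.5 in DKO replicate 1, below the other DKO libraries at 2161 to 2178, and its log2 fold change without that library was -0.05 (adjusted p = 0.758).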

How the results depend on the processing

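The number of the 10 genes called lower, 3, held with DESeq2, limma-voom, no TMM, relative log expression and at least 10 counts in every library. It was 1 with upper-quartile scaling, 1 with the replicate block, 0 with a log2 fold change beyond 1 required, and 1 to 4 without a library (1 without any WT library, 4 without DKO replicate 3). The number called higher, 0, was 1 with DESeq2, 1 with limma-voom, 2 with upper-quartile scaling, 1 with relative log expression, 2 with protein-coding genes only, 1 with at least 10 counts in every library, and 0 to 1 without a library (1 without DKO replicate 2). With the block, the adjusted p was 0.0227 for Mfn2, 0.0788 for Pisd and 0.0838 for Rmdn3, and over all genes 1083 were called lower and 1026 higher instead of 1878 and 1867. Among the other genes named, the block ended the calls of Vdac1 (adjusted p = 0.0507), Pcyt1a (0.0661), Hadha (0.0820), Atg9b (0.0577) and Xk (0.0691). Upper-quartile scaling moved the median log2 fold change of all genes from 0.03 to 0.14, gave 2492 called higher and 1242 lower, gave Pdzd8 and Vmp1 values of 0.02 and 0.08 (not called), and ended the calls of Pcyt2 (adjusted p = 0.0519), Pcyt1a (0.0630), Hadha (0.113) and Xk (0.0676). DESeq2 called 2767 genes higher and 2646 lower. Hadha also lost its call with DKO replicate 3 alone (adjusted p = 0.0613). Where no cause is named here, the cause was not tested. Whole-gene counts do not separate isoforms or overlapping exons, and RNA levels do not measure lipids, enzyme activity or contact sites. Fits with a lone DKO library have no spread of their own.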

Other observations

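The list of the complex that shapes cristae junctions, with 11 genes including sorting machinery of the outer membrane, held genes called in both directions. Immt, the core subunit MIC60, had 13291 ± 1090 normalized counts in WT and a lower 9437 ± 339 in DKO (SD over 4 libraries; log2 fold change -0.49, edgeR adjusted p = 0.00449), with no overlap of the genotypes. Minos1, which encodes MIC10, rose from 11174 ± 365 to 14615 ± 1652 (log2 fold change 0.39, adjusted p = 0.0168), and 2410015M20Rik, which encodes MIC13, rose from 5215 ± 410 to 6657 ± 459 (log2 fold change 0.35, adjusted p = 0.0192). The median of the list was 0.04, and the call of Immt held in every alternative fit. Without WT replicate 1 or 4 the calls of Minos1 (adjusted p = 0.0574 and 0.0604) and of 2410015M20Rik (0.0753 and 0.0700) were lost, and so was that of 2410015M20Rik without WT replicate 2 (0.0562) or with DKO replicate 3 alone (0.0548).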
